A study of Mus musculus with 18 samples.

Results

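The neurotrophin genes described here are 8 of the 55421 genes in the striatal count table, chosen by name. They comprised 2 ligands (Bdnf and Ntf3), 3 receptors (Ntrk2, Ntrk3 and Ngfr) and 3 genes of the sortilin family (Sort1, Sorcs1 and Sorcs3). All 8 were found in the table, and 7 had enough counts to enter the differential expression fit of 20914 genes, Ntf3 being the exception.

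RNA from the whole striatum was sequenced from 18 mice, each 12 to 14 months old, with 1 library per mouse. The 5 WT mice were wild type on a C57BL/6 background. The 5 zQ175 mice carried, on 1 allele, the knock-in of a huntingtin gene with an expanded CAG repeat in exon 1, a chimeric human and mouse exon, and are a model of Huntington's disease (HD). The 3 CK2a'(+/-) mice lacked 1 allele of Csnk2a2, which encodes the catalytic subunit CK2 alpha prime of protein kinase CK2, and came from a line made on a mixed 129/SvEv and C57BL/6J background and then backcrossed. The 5 zQ175:CK2a'(+/-) mice carried the knock-in and lacked 1 allele of Csnk2a2. No transgene promoter or Cre was involved, so both changes were carried in the germ line. The study's methods give both sexes in unequal proportions between the groups, and the labels tie no sex to a library.

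Neurotrophins are secreted growth factors that are made as precursors, cleaved, and released from neurons. Mature BDNF binds the receptor tyrosine kinase TrkB and NT-3 binds TrkC, whereas the uncleaved precursors bind p75NTR together with a member of the sortilin family. The striatum is known to make little BDNF of its own and to receive most of it along axons from the cortex. Reduced supply of BDNF is a much studied theme in HD, since normal huntingtin promotes both the transcription of Bdnf and the axonal transport of its vesicles.

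Library depth ranged from 13612381 to 22702547 counts (median 18005044). Csnk2a2 followed the labels, with 29.4 to 37.5 CPM (a count relative to its TMM-normalized library size) in the 10 mice with both alleles and 14.7 to 19.9 CPM in the 8 mice with 1 allele (exact two-sided permutation test, p = 2.29e-05, the smallest this design can give). Markers of striatal projection neurons were detected in every library, with none of the 12 listed genes at 0. Of the libraries, 2 from zQ175 mice stood apart. The sum of 6 thalamic markers was 958 CPM in zQ175 replicate 1 against 31.9 to 401 CPM in the other libraries, and the sum of 12 markers of cortical excitatory neurons was 625 CPM in zQ175 replicate 5 and 525 CPM in zQ175 replicate 1 against 294 to 413 CPM elsewhere. In addition, 4 libraries (WT replicates 1 and 3, CK2a'(+/-) replicate 1 and zQ175:CK2a'(+/-) replicate 2) held the choroid plexus gene Ttr at over 500 CPM. Calls that were lost without these libraries are named where the genes are described.

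In WT striatum the receptors and sortilins were far more abundant than the ligands. Levels were compared between genes as CPM per kb of exon. Sort1, which encodes the sorting receptor sortilin, was the highest at a mean of 34.5 CPM per kb and lay at percentile 96.1 of all genes tested by its mean over the 18 mice. Ntrk2, which encodes TrkB, followed at 20.9 CPM per kb (percentile 92.3). These levels did not overlap each other or those of any other member over the 5 WT mice. Sorcs1 (10.8) and Ntrk3, which encodes TrkC (8.08), overlapped each other in range, and so did Sorcs3 (3.83) and Ngfr, which encodes p75NTR (3.48). Bdnf (0.164 CPM per kb, percentile 15) and Ntf3, which encodes NT-3 (0.0893 CPM per kb), overlapped each other and lay below all receptors in every WT mouse.

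**Figure D1:**
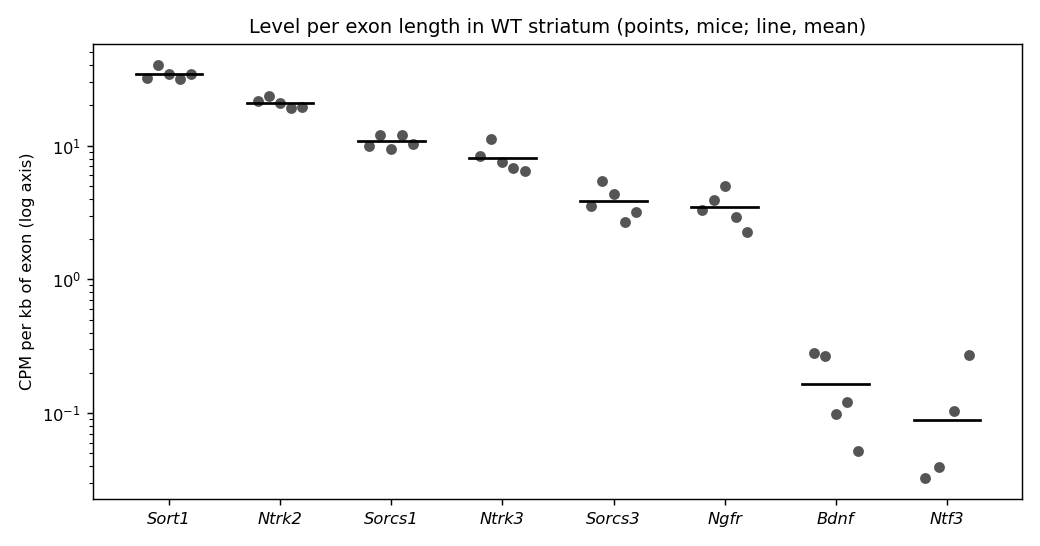
Level of the 8 genes in WT striatum, in CPM per kb of exon on a log axis. Each point is 1 of 5 mice and each line is the mean, and the 1 WT mouse with a count of 0 for Ntf3 enters that mean but has no point. Sort1 and Ntrk2 stand at 34.5 and 20.9 CPM per kb, and Bdnf and Ntf3 at 0.164 and 0.0893 CPM per kb.

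Bdnf (ENSMUSG00000048482, GRCm38 chromosome 2, 109674700 to 109727007, plus strand) starts from several alternative first exons, each with its own promoter, that all splice to a shared coding exon. A gene count adds these transcripts together, so the measurements below do not say which promoter was used. The RefSeq table of promoters (GRCm38.p6) held 6 of the 8 members with 13 windows in total, and 7 of those windows belonged to Bdnf. Activity-dependent Bdnf transcription is known to run through CREB, which binds the CRE, so the 250 bases before each start were searched on both strands for the CRE half-site TGACG. It was found in 1 of the 7 Bdnf windows and in none of the other 6 member windows, and 17.8% of all 32851 windows held it. The full palindrome TGACGTCA, which contains the half-site, was in none of the 13 windows and in 1.55% of all windows. The variant TCACGTCA, searched because it is the CRE known from a Bdnf promoter, also contains the half-site and was in 1 of the 13 windows, the same Bdnf window, and in 0.350% of all windows. The window that held the half-site, window 3 along the gene, and window 1 are shown to let a reader compare the only match with a window without one. Both are on the plus strand and written 5′ to 3′, with the half-site, here read from the opposite strand, in capitals.
Bdnf window 1, chr2:109674450-109674699: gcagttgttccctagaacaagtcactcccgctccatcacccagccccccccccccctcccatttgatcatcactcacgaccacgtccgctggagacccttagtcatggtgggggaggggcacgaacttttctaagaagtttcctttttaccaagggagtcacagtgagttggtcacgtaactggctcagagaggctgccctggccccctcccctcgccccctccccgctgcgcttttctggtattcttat
Bdnf window 3, chr2:109692186-109692435: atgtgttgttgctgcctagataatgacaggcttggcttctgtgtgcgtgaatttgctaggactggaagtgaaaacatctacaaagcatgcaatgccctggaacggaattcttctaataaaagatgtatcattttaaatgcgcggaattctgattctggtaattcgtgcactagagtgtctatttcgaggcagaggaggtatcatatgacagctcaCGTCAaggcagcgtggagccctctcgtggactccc
The match is a description of letters, and no measurement here bears on its use.

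Bdnf was higher in the striatum of zQ175 mice than in WT mice. Bdnf encodes the ligand of TrkB. It was measured at 1.74, 1.68, 0.613, 0.755 and 0.324 CPM in WT mice 1 to 5 and at 10.1, 3.88, 2.09, 3.03 and 14.5 CPM in zQ175 mice 1 to 5. Every zQ175 mouse lay above every WT mouse, and zQ175 replicates 1 and 5 were well above the other 3. The group means were 6.73 ± 5.37 CPM in zQ175 (SD, n = 5) and 1.02 ± 0.647 CPM in WT (SD, n = 5). The fitted log2 fold change was 2.72 (SE 0.647, 95% interval 1.37 to 4.06), a 6.58-fold difference, with an edgeR adjusted p of 0.0726. Bdnf was thus the only 1 of the 7 tested members to pass FDR 0.1 in this comparison, in which 1.1% of all genes passed 0.387% as higher and 0.712% as lower. Ranges that did not overlap between zQ175 and WT were found for 2.44% of all genes and, among the members, for Bdnf alone.

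The difference rested on few counts and partly on 2 libraries. Bdnf had 7 to 35 counts per library in WT and 34 to 270 in zQ175, with 872 counts over all 18 libraries. An antisense gene, Gm45346, shares 896 exon bases with Bdnf and had 39 counts in all. The kit keeps the strand, but whether the counting used it is not given in the sources used here. Leaving out 1 library at a time gave log2 fold changes from 2.22 to 2.99, and the call was lost in 6 of 18 cases: without WT replicate 1 (adjusted p = 0.135), 3 (0.187), 4 (0.105) or 5 (0.114), and without zQ175 replicate 1 (0.117) or 5 (0.168). Without zQ175 replicates 1 and 5 together the log2 fold change was 1.55 (SE 0.664, adjusted p = 0.430, no gene of the table passing), and the 3 zQ175 mice then left had more Bdnf than any of the 5 WT mice. Without the 4 libraries rich in Ttr it was 2.90 (adjusted p = 0.496, with 1 gene of the table passing). The call was also lost with the 2 groups alone (adjusted p = 0.149) and in a robust fit (0.101), and it was kept with DESeq2.

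The summed level of markers of cortical excitatory neurons was highest in the 2 mice with most Bdnf. It was 326 to 363 CPM in WT, 367 to 625 CPM in zQ175, 294 to 400 CPM in CK2a'(+/-) and 311 to 399.5 CPM in zQ175:CK2a'(+/-), so the zQ175 mice did not overlap the WT mice for this sum either. Of 11 tested genes on that list, 9 had a higher fitted level in zQ175 than in WT and 1 passed as higher, Tbr1, a transcription factor of cortical projection neurons (log2 fold change 1.27, adjusted p = 0.0902). Emx1 was at 0 in 5 libraries and Neurod6 in 1. Slc17a7, the vesicular glutamate transporter of cortical neurons, was at 11.9 to 32.2 CPM in WT and at 66.8, 29.1, 62.6, 50.5 and 202 CPM in zQ175 mice 1 to 5. Tbr1 was at 3.61, 10.95, 11.75, 9.23 and 17.3 CPM in these zQ175 mice and at 2.13 to 5.82 CPM in WT. Neurod6 was at 1.08, 4.35, 4.24, 2.90 and 45.7 CPM and at 0.185 to 4.97 CPM in WT. Both were thus lowest among zQ175 mice in replicate 1, within the WT range, and highest in replicate 5. The thalamic sum was 41.3 to 274 CPM in WT and 50.2 to 958 CPM in zQ175, with no gene of 6 passing and Lhx9 at 0 in 3 libraries. All 6 had a higher fitted level in zQ175 (median of the log2 fold changes 1.16). Genes of other marker lists passed as lower in zQ175 against WT. Of 7 markers of mature oligodendrocytes 4 passed as lower, with sums of 3545 to 5332 CPM in zQ175 and 5437 to 7500 CPM in WT, without overlap and with no marker at 0. Of 12 markers of striatal projection neurons 3 passed as lower, with sums of 1617 to 3273 CPM in zQ175 and 2965 to 6995 CPM in WT, which overlapped. Of 7 microglial markers 1 passed as lower, C1qa, a component of complement (log2 fold change -0.64, adjusted p = 0.0707), with sums of 169 to 223 CPM in zQ175 and 207 to 243 CPM in WT, which overlapped. None of 7 tested hippocampal markers passed, although 6 had a higher fitted level in zQ175 (median of the log2 fold changes 0.72), and their sums of 674 to 1066 CPM in zQ175 and 570.0 to 729 CPM in WT overlapped. None of 7 markers of GABAergic interneurons passed, and 1 had a higher fitted level in zQ175. Their sums of 170 to 277 CPM in zQ175 and 285.5 to 344 CPM in WT did not overlap. The 9 marker genes that passed in this comparison all kept their sign without zQ175 replicates 1 and 5 and without the 4 libraries rich in Ttr, and none of them passed (adjusted p = 0.245 to 0.347 and 0.496 to 0.536). The part of any of these markers in the levels of Bdnf, Ngfr or Mapk3 was not tested.

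In the mice that carried the knock-in with 1 CK2a' allele, Bdnf was near the WT level. It was measured at 1.07, 1.15, 0.490, 0.106 and 2.52 CPM in zQ175:CK2a'(+/-) mice 1 to 5 (mean 1.07 ± 0.920, SD, n = 5). These values overlapped WT, and the log2 fold change against WT was 0.05 (SE 0.668, 95% interval -1.33 to 1.44, adjusted p = 0.994). Against zQ175:CK2a'(+/-) mice, zQ175 mice had a log2 fold change of 2.66 (SE 0.650, 95% interval 1.31 to 4.01), and 4 of 5 zQ175 mice lay above all zQ175:CK2a'(+/-) mice. That comparison did not pass over all genes (unadjusted p = 0.000508, adjusted p = 0.419), and 0.0143% of all genes passed in it. Without a filter on low counts it did pass (adjusted p = 0.00975). It shares the zQ175 libraries with the comparison against WT, so the 2 are not independent.

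The CK2a'(+/-) mice without the knock-in had Bdnf at 1.82, 0.613 and 0.267 CPM, 1 above, 1 within and 1 below the WT range. Their log2 fold change against WT was -0.16 (SE 0.772, adjusted p = 0.999), and that of zQ175:CK2a'(+/-) against CK2a'(+/-) was 0.21 (SE 0.777, adjusted p = 0.968). Averaged over both CK2a' genotypes, the knock-in gave a log2 fold change of 1.47 (SE 0.510, unadjusted p = 0.0091, adjusted p = 0.138), and 4.9% of all genes passed, 2.11% as higher and 2.78% as lower. The interaction, the change with the knock-in in mice with 1 CK2a' allele minus that in mice with both, was -2.50 (SE 0.993, 95% interval -4.57 to -0.44, unadjusted p = 0.0198, adjusted p = 0.916). So the difference between the responses was not established over all genes, of which 0.00478% passed. Without zQ175 replicates 1 and 5 the interaction was -1.33 (unadjusted p = 0.186).

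**Figure D2:**
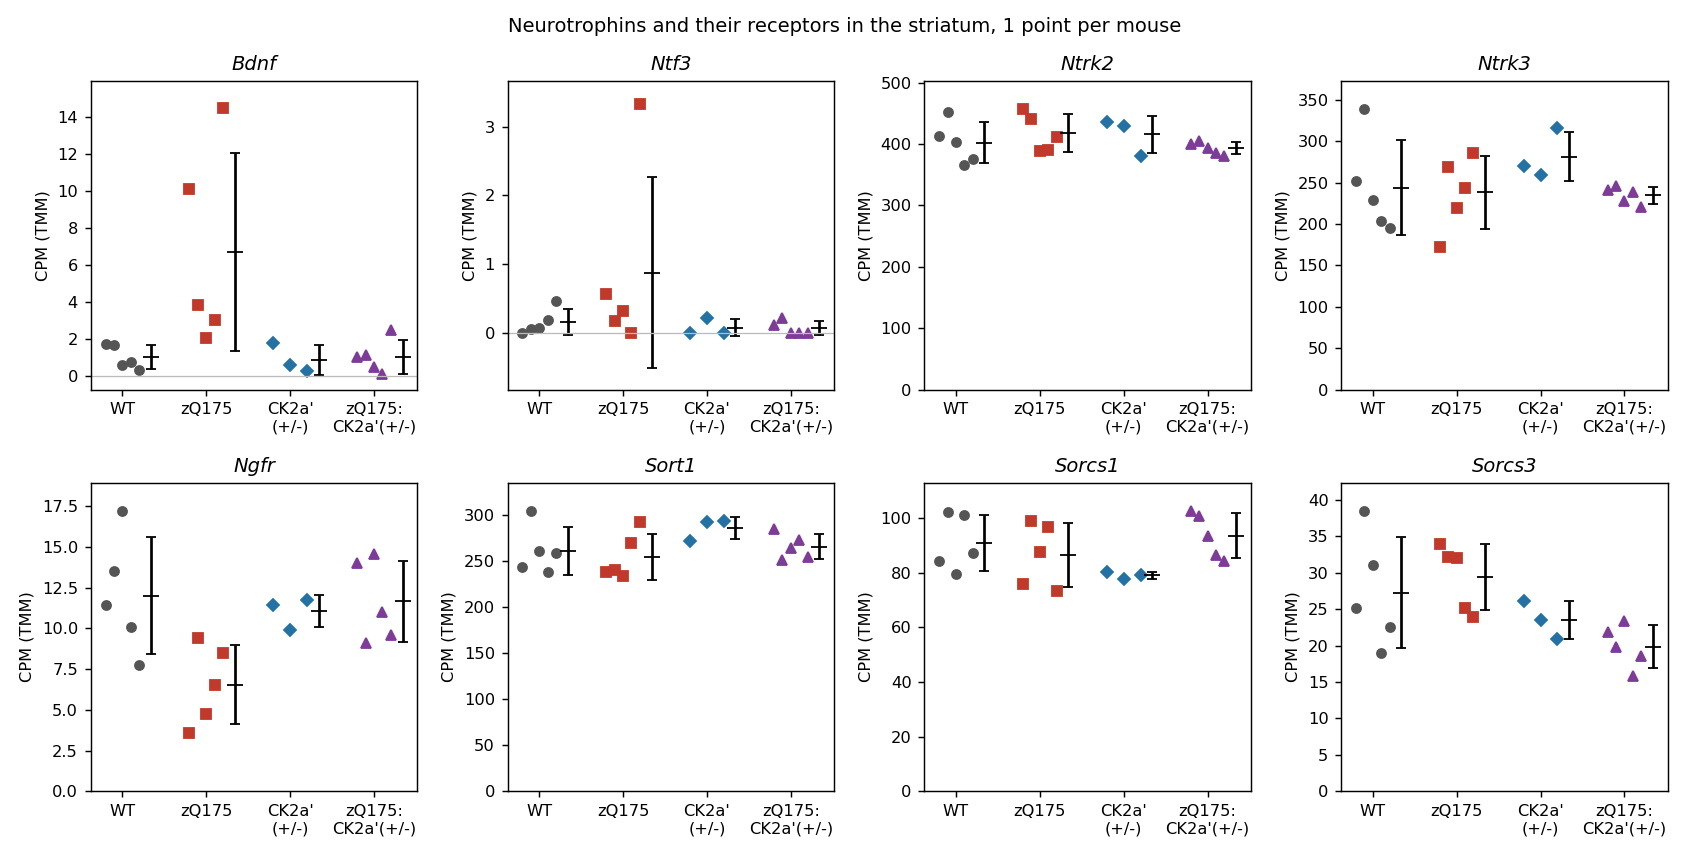
CPM after TMM normalization of the 8 genes, 1 point per mouse in 4 genotypes, with the group mean and SD to the right of the points. Bdnf in zQ175 spans 2.09 to 14.5 CPM and lies above all WT mice, Ngfr is low in several zQ175 mice, and Ntf3 stands out in 1 zQ175 mouse at 3.33 CPM.

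Ntf3 (ENSMUSG00000049107, chromosome 6, 126101412 to 126166910, minus strand), the TrkC ligand, was close to the limit of detection. It had no count in 7 of 18 libraries, where 0 counts allow up to 3, and 108 counts in total. Of these, 62 came from zQ175 replicate 5 (3.33 CPM), and no other library had more than 12. In zQ175 mice 1 to 5 it was at 0.562, 0.174, 0.308, 0 and 3.33 CPM and in WT mice at 0, 0.0559, 0.0681, 0.178 and 0.463 CPM, so the groups overlapped. Exact two-sided permutation tests of log2 CPM gave p = 0.254 for zQ175 against WT and p = 0.0952 for zQ175 against zQ175:CK2a'(+/-), where 0.00794 was the smallest p possible. The library with most Ntf3 was also the one with most Bdnf and with the highest cortical sum, and it had the highest sum of hippocampal markers, 1066 CPM against 559 to 771 CPM in the other libraries.

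Neither kinase receptor passed in any comparison. Ntrk2 (ENSMUSG00000055254, chromosome 13, 58806569 to 59133970, plus strand) encodes TrkB, the receptor of BDNF. Its mean was 402 ± 33.95 CPM in WT and 418 ± 30.5 CPM in zQ175 (SD, n = 5 each), 416 ± 30.3 CPM in CK2a'(+/-) (n = 3) and 393 ± 10.1 CPM in zQ175:CK2a'(+/-) (n = 5). The groups overlapped in all comparisons. The log2 fold change of zQ175 against WT was 0.05 with a 95% interval of -0.09 to 0.20, which leaves out changes of the size seen for Bdnf. A gene count does not separate the full-length kinase from the truncated TrkB of astrocytes, which share exons, and a shift between them would not show here.

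Ntrk3 (ENSMUSG00000059146, chromosome 7, 78175959 to 78738012, minus strand) encodes TrkC, the receptor of NT-3. It ranged from 195 to 339 CPM in WT, 172 to 286 CPM in zQ175, 259 to 315 CPM in CK2a'(+/-) and 220 to 246 CPM in zQ175:CK2a'(+/-). All zQ175:CK2a'(+/-) mice lay below all 3 CK2a'(+/-) mice, a lack of overlap that 8.34% of all genes showed in this comparison of 5 with 3 mice. The fitted log2 fold change was -0.26 (SE 0.153, adjusted p = 0.663), and 0.593% of all genes passed there. The log2 fold change of zQ175 against WT was -0.03 (95% interval -0.31 to 0.24).

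Ngfr had a lower mean in zQ175 mice than in WT mice, 6.55 ± 2.44 against 12.0 ± 3.60 CPM (SD, n = 5 each), and narrowly missed the threshold. Ngfr (ENSMUSG00000000120, chromosome 11, 95568818 to 95587735, minus strand) encodes p75NTR, the low affinity receptor of all neurotrophins and the co-receptor of their precursors. It was measured at 11.5, 13.5, 17.2, 10.1 and 7.74 CPM in WT mice 1 to 5 and at 3.61, 9.39, 4.74, 6.53 and 8.496 CPM in zQ175 mice 1 to 5. In this set 3 of 5 zQ175 mice lay below all WT mice, and the ranges overlapped through WT replicate 5. Between these groups the log2 fold change was -0.87 (SE 0.237, 95% interval -1.36 to -0.38, unadjusted p = 0.00141), and the adjusted p of 0.105 missed the threshold. DESeq2 (adjusted p = 0.0215), a robust fit (0.0952) and a fit without a filter on low counts (0.0254) placed it under the threshold. It stayed above with the 2 groups alone (0.220), with Xist as covariate (0.126), under a replicate block (0.174), without zQ175 replicates 1 and 5 (0.270) and without the libraries rich in Ttr (0.583). Leaving out 1 library at a time, it passed in 2 of 18 cases and the adjusted p ranged from 0.0737 to 0.260.

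In zQ175:CK2a'(+/-) mice Ngfr was at 14.0, 9.12, 14.6, 10.99 and 9.62 CPM, and in CK2a'(+/-) mice at 11.5, 9.93 and 11.8 CPM. Both sets lay within the WT range. The log2 fold change of zQ175:CK2a'(+/-) against WT was -0.04 (95% interval -0.52 to 0.45). That of zQ175 against zQ175:CK2a'(+/-) was -0.83 (SE 0.238, unadjusted p = 0.00205, adjusted p = 0.499), with 4 of 5 zQ175 mice below all zQ175:CK2a'(+/-) mice. The interaction was 0.95 (SE 0.360, unadjusted p = 0.0153, adjusted p = 0.916).

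Ngfr is set here beside cholinergic markers, none of which passed in zQ175 against WT. The p75 receptor is a known marker of basal forebrain cholinergic neurons, which lie next to the striatum. The sum of 6 cholinergic markers was 57.6 to 81.2 CPM in WT, 41.4 to 70.5 CPM in zQ175, 67.7 to 91.7 CPM in CK2a'(+/-) and 59.8 to 88.4 CPM in zQ175:CK2a'(+/-). The sums of zQ175 and WT overlapped, 5 of the 6 had a lower fitted level in zQ175, and none was at 0 in any library. At an unadjusted p under 0.05 there were 4 of the 6 in zQ175 against WT (13.9% of all genes) and 4 in zQ175 against zQ175:CK2a'(+/-) (6.27%), with median log2 fold changes of -0.53 and -0.50. Chat, which makes acetylcholine, was at 16.4 to 22.9 CPM in WT and at 5.11, 17.7, 11.5, 16.4 and 14.0 CPM in zQ175 mice 1 to 5. Slc18a3, the vesicular acetylcholine transporter, did not overlap, at 4.29 to 6.70 CPM in WT and 1.91 to 3.76 CPM in zQ175. Lhx8, a transcription factor of forebrain cholinergic neurons, was at 4.41 to 7.62 CPM in WT and at 1.69, 6.20, 2.89, 5.74 and 3.60 CPM in zQ175 mice 1 to 5. The other markers of this list were less uniform. Slc5a7 had a mean of 27.3 CPM in WT and 20.6 CPM in zQ175, with ranges that overlapped. Isl1 was nearly level (13.4 and 12.9 CPM), and the mean of Gbx2 was higher in zQ175 (1.26 and 4.25 CPM, at most 16.1 CPM). Among zQ175 mice, Chat and Lhx8 were lowest in zQ175 replicate 1, the mouse with least Ngfr. In these bulk samples fewer cells of a type and less RNA per cell cannot be told apart. The part of cholinergic cells in the level of Ngfr was not tested.

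**Figure D3:**
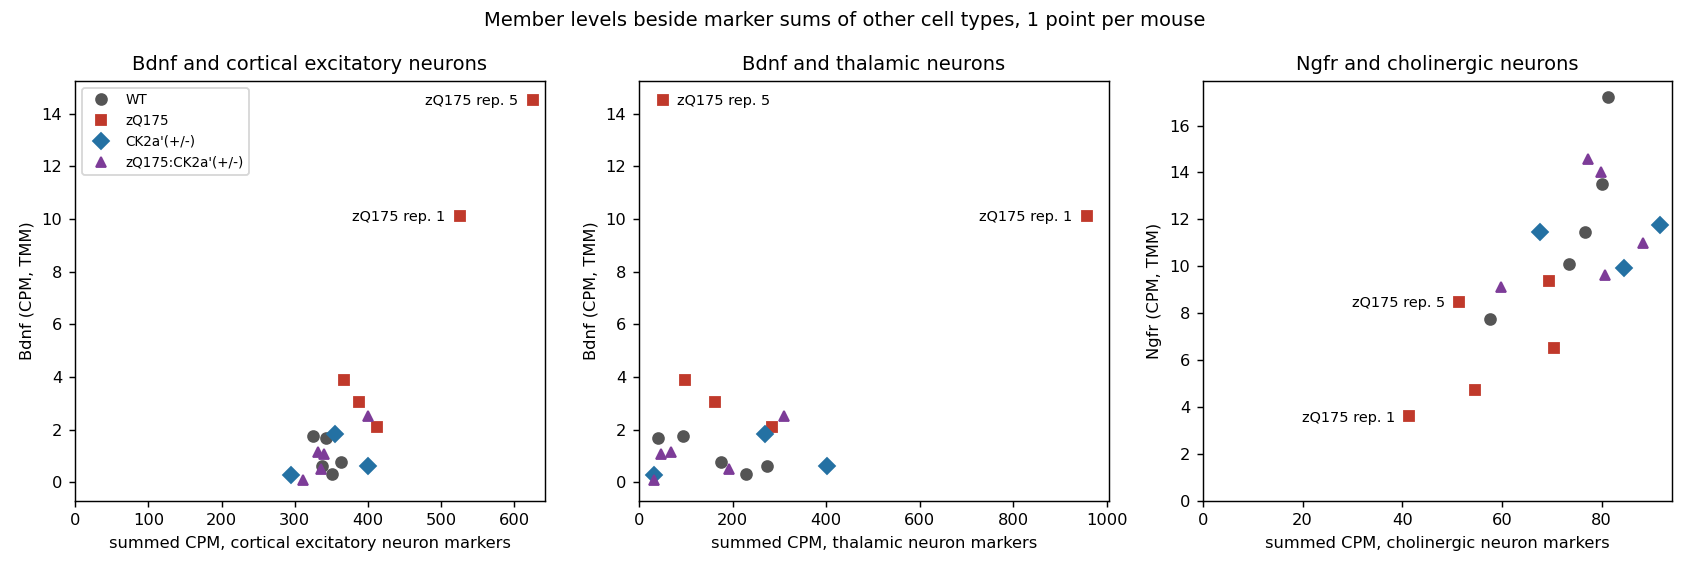
Bdnf against the summed markers of cortical excitatory neurons and of thalamic neurons, and Ngfr against the summed cholinergic markers, all in CPM with 1 point per mouse. The 2 zQ175 mice with most Bdnf (10.1 and 14.5 CPM) have the highest cortical sums, and the zQ175 mouse with least Ngfr (3.61 CPM) has the lowest cholinergic sum (41.4 CPM).

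The sortilin family sorts neurotrophins and their receptors and serves with p75NTR as receptor of the precursors. Sort1 (ENSMUSG00000068747, chromosome 3, 108284082 to 108361511, plus strand) had a mean of 261 ± 26.3 CPM in WT and 255 ± 25.1 CPM in zQ175 (SD, n = 5 each), 286 ± 12.2 CPM in CK2a'(+/-) (n = 3) and 266 ± 13.7 CPM in zQ175:CK2a'(+/-) (n = 5). Groups overlapped in all comparisons, and the log2 fold change of zQ175 against WT was -0.03 (95% interval -0.20 to 0.13). Sort1 shares 338 exon bases with the antisense gene Gm12523, which had 58 counts against 86490 of Sort1.

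Sorcs1 (ENSMUSG00000043531, chromosome 19, 50143299 to 50678646, minus strand) was at 79.7 to 102 CPM in WT and 73.3 to 98.8 CPM in zQ175. In CK2a'(+/-) mice it was at 80.4, 77.8 and 79.0 CPM, the lowest group mean (79.0 ± 1.30 CPM, SD, n = 3), although zQ175 replicates 1 and 5 were lower. All 3 lay below the zQ175:CK2a'(+/-) mice at 103, 101, 93.6, 86.5 and 84.1 CPM, a lack of overlap found for 8.34% of all genes. The log2 fold change of zQ175:CK2a'(+/-) against CK2a'(+/-) was 0.24 (SE 0.110, unadjusted p = 0.0381, adjusted p = 0.503). That of zQ175 against WT was -0.07 (95% interval -0.27 to 0.12), and the interaction was 0.32 (unadjusted p = 0.0402, adjusted p = 0.916).

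Sorcs3 (ENSMUSG00000063434, chromosome 19, 48206025 to 48805505, plus strand) separated the 2 groups with the knock-in. It was at 33.9, 32.2, 32.0, 25.2 and 24.0 CPM in zQ175 mice 1 to 5 and at 21.8, 19.8, 23.4, 15.8 and 18.5 CPM in zQ175:CK2a'(+/-) mice 1 to 5, without overlap, as for 1.14% of all genes in this comparison. Their log2 fold change was 0.57 (SE 0.161, 95% interval 0.23 to 0.91, unadjusted p = 0.00197), and over all genes it did not pass (adjusted p = 0.499). WT mice were at 25.2, 38.5, 31.1, 19.0 and 22.6 CPM and overlapped both groups, with 2 zQ175:CK2a'(+/-) mice below all of them, and CK2a'(+/-) mice were at 26.1, 23.5 and 20.9 CPM. Against WT the log2 fold change was 0.11 in zQ175 (SE 0.160, adjusted p = 0.804) and -0.46 in zQ175:CK2a'(+/-) (SE 0.161, unadjusted p = 0.0101, adjusted p = 0.400). Without zQ175 replicates 1 and 5, the log2 fold change of zQ175 against zQ175:CK2a'(+/-) was 0.58 (unadjusted p = 0.00416).

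**Figure D4:**
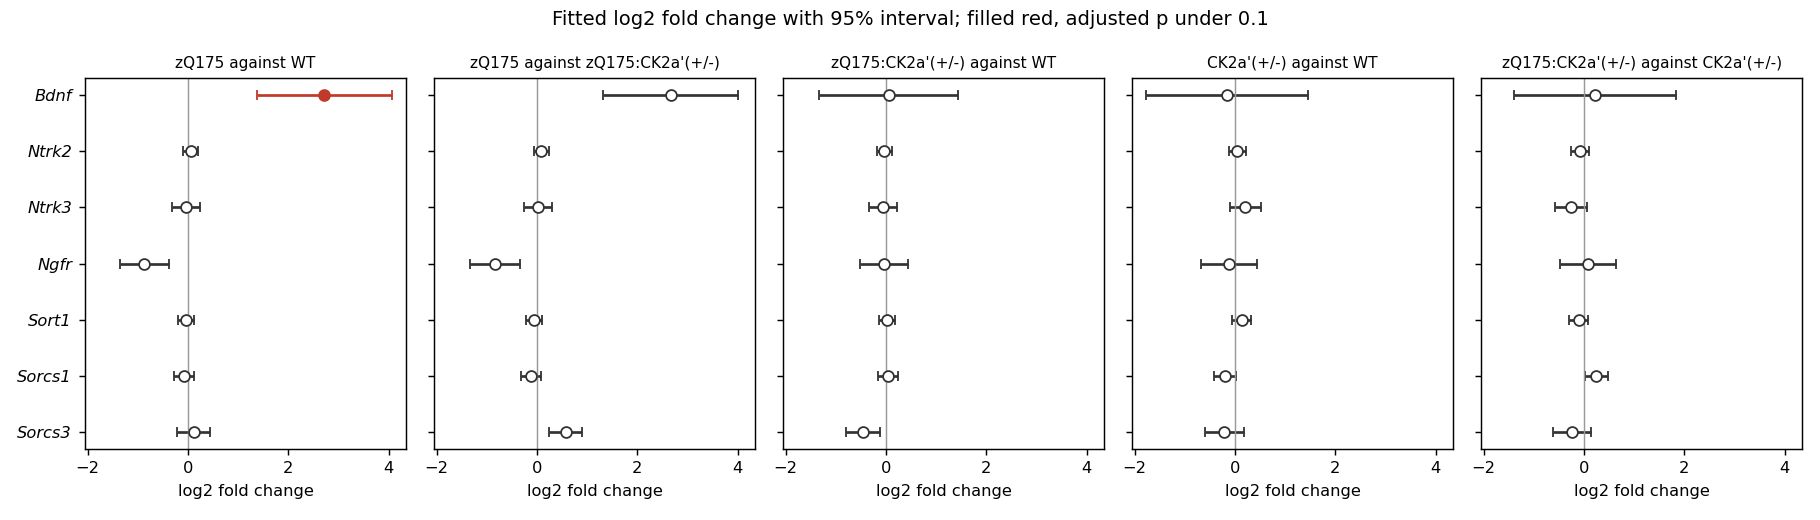
Fitted log2 fold change with its 95% interval for the 7 tested genes in 5 comparisons of genotypes, where a filled red point marks an adjusted p under 0.1. Bdnf in zQ175 against WT (2.72) is the only filled point, and the intervals of Ntrk2 and Sort1 are the narrowest.

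Over the 7 comparisons, members passed FDR 0.1 in 1 comparison, through Bdnf, and in none of the other 6. At an unadjusted p under 0.05 there were 2 of 7 members in zQ175 against WT (13.9% of all genes), 1 in zQ175:CK2a'(+/-) against WT (9.13%), 3 in zQ175 against zQ175:CK2a'(+/-) (6.27%), 0 in CK2a'(+/-) against WT (4.48%), 1 in zQ175:CK2a'(+/-) against CK2a'(+/-) (9.19%), 2 for the averaged knock-in (16.2%) and 3 for the interaction (5.39%). Those 3 were Bdnf, Ngfr and Sorcs3 in zQ175 against zQ175:CK2a'(+/-), and Bdnf, Ngfr and Sorcs1 for the interaction. In zQ175 against zQ175:CK2a'(+/-) no marker gene passed. Beside the cholinergic markers, 4 of 11 cortical and 3 of 6 thalamic markers had an unadjusted p under 0.05 there. So had 4 of 7 markers of mature oligodendrocytes, 4 of 7 of microglia and 4 of 6 of choroid plexus. The part of these markers in the levels of the members was not tested. DESeq2 passed Bdnf and Ngfr in zQ175 against WT and no member in the other comparisons. In CK2a'(+/-) against WT and in zQ175:CK2a'(+/-) against WT 0.0143% of all genes passed, and no member was without overlap, which 3.2% and 1.84% of all genes were.

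The genes with the most similar pattern over the 18 mice are given as a description, since all values come from the same libraries and share their depth and tissue content. For Bdnf they were Map4k3 (Pearson r = 0.863 of log2 CPM, 0.810 without zQ175 replicate 5), Mir99ahg (0.858 and 0.827) and 2900064K03Rik (0.852 and 0.835). For Ngfr they were Col17a1 (0.849), Chat (0.837) and Gm48678 (0.830), and by rank (Spearman's rho) Col17a1 was less alike, at 0.505 against 0.835 and 0.845. Ntrk3 had the closest companions of all members, with Abi2 at 0.942, Cacna1e at 0.941 and St8sia3 at 0.938. Gm37891 led for Ntrk2 (0.814), Rbfox1 for Sort1 (0.834), Fndc3b for Sorcs1 (0.838) and Gtpbp4 for Sorcs3 (0.877). Between members over the 18 mice, r was highest for Ntrk2 with Sorcs3 (0.703) and for Ntrk3 with Sort1 (0.702). Without zQ175 replicates 1 and 5 it was highest for Ntrk2 with Ntrk3 (0.672, against 0.273 with all mice), ahead of those 2 pairs at 0.657 and 0.641. Bdnf and Ngfr had r = -0.525, and -0.336 without those 2 libraries.

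Few genes of the surrounding pathways passed. Among the other neurotrophins and receptors, 6 of 8 listed genes were tested and none passed in any comparison. Of 42 genes of Trk adaptors and signalling, 1 passed in zQ175 against WT, where 1.1% of all genes passed and 0.712% as lower. This was Mapk3, which encodes the kinase ERK1 and fell from 79.8 ± 3.54 CPM in WT to 62.5 ± 3.44 CPM in zQ175 (log2 fold change -0.35, adjusted p = 0.0557), with 72.0 ± 8.76 CPM in zQ175:CK2a'(+/-). It did not pass without zQ175 replicates 1 and 5 (-0.31, adjusted p = 0.260) or without the libraries rich in Ttr (-0.31, adjusted p = 0.496). The median log2 fold change of these 42 genes was 0.0031 and that of all genes tested was 0.0042. None of the 16 tested genes of p75 adaptors and signalling passed in any comparison, and their median log2 fold change in zQ175 against WT was 0.03.

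Among 18 genes of precursor cleavage and transport none passed in zQ175 against WT. Pcsk1, a prohormone convertase of secretory granules, was the 1 gene of this list to pass as higher in zQ175:CK2a'(+/-) against CK2a'(+/-) (log2 fold change 1.01, adjusted p = 0.0989), where 0.593% of all genes passed, and for the averaged knock-in (0.82, adjusted p = 0.0113), where 2.11% passed as higher. Without the libraries rich in Ttr neither call was kept (1.04, adjusted p = 0.312, and 0.81, adjusted p = 0.119), and without zQ175 replicates 1 and 5 the second was (0.93, adjusted p = 0.00431). Its mean was 10.8 ± 1.81 CPM in WT, 16.8 ± 5.97 CPM in zQ175, 6.99 ± 0.988 CPM in CK2a'(+/-) and 14.1 ± 2.68 CPM in zQ175:CK2a'(+/-) (SD).

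Of 19 known regulators of Bdnf transcription, 1 passed in zQ175 against WT, where 0.387% of all genes passed as higher, and 16 had a fitted level above WT, against 10578 of 20914 genes tested. This was Creb1, which encodes the factor CREB and rose from 50.4 ± 3.33 CPM in WT to 62.1 ± 3.64 CPM in zQ175 (SD, n = 5 each, log2 fold change 0.30, adjusted p = 0.0613). In zQ175:CK2a'(+/-) against WT, where Bdnf was near the WT level, 16 of the 19 were also above WT, against 10139 of 20914 genes. Creb1 did not pass without zQ175 replicates 1 and 5 (0.33, adjusted p = 0.245) or without the libraries rich in Ttr (0.29, adjusted p = 0.498). It was at 62.1 ± 2.87 CPM in zQ175:CK2a'(+/-) mice, and its log2 fold change for the averaged knock-in was 0.30 (adjusted p = 0.00568). For the averaged knock-in 5 of the 19 passed, all as higher, where 2.11% of all genes passed as higher. Beside Creb1 these were Crebbp and Ep300, the coactivators of CREB (log2 fold changes 0.20 and 0.19, adjusted p = 0.0294 and 0.0555), Hdac4, a histone deacetylase that represses MEF2 targets (0.29, adjusted p = 0.0479), and Neurod2, a factor of excitatory neurons (2.44, adjusted p = 0.0217). All 5 passed without zQ175 replicates 1 and 5 (adjusted p = 0.00899 to 0.0593), and without the libraries rich in Ttr Creb1 alone did (0.31, adjusted p = 0.0807). The log2 fold changes in that last setting were 0.20 for Crebbp, 0.22 for Ep300, 0.25 for Hdac4 and 2.098 for Neurod2, each less than its SE from the value with all libraries. Bhlhe40, a repressor, passed as lower in zQ175:CK2a'(+/-) against CK2a'(+/-) (-0.56, adjusted p = 0.0989), where 0.593% of all genes passed, and did not without the libraries rich in Ttr (-0.54, adjusted p = 0.322). Its mean was 46.3 ± 5.61 CPM in WT, 49.1 ± 10.6 CPM in zQ175, 63.1 ± 1.98 CPM in CK2a'(+/-) and 42.7 ± 4.80 CPM in zQ175:CK2a'(+/-) (SD). CK2a'(+/-) had the highest mean, and its range overlapped that of zQ175. Its log2 fold change against WT was 0.45 (unadjusted p = 0.00386, adjusted p = 0.999).

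Of 17 tested genes that neuronal activity or BDNF is known to induce, none passed in zQ175 against WT, where their median log2 fold change was -0.12. For the averaged knock-in 1 of 17 passed, Dusp1, a phosphatase that ends MAP kinase signals, as lower (-0.45, adjusted p = 0.0849). In the same comparison 3 of the 42 Trk signalling genes passed, all as lower, where 4.9% of all genes passed and 2.78% as lower. These were Akt2, a kinase downstream of PI3 kinase (-0.31, adjusted p = 0.0844), Hras, a small GTPase upstream of the ERK kinases (-0.37, adjusted p = 0.0425), and Camk4, a calcium-dependent kinase that phosphorylates CREB (-0.42, adjusted p = 0.0503). Of Dusp1 and these 3 genes, Hras alone passed without zQ175 replicates 1 and 5 (adjusted p = 0.0964), and none passed without the libraries rich in Ttr (adjusted p = 0.143 to 0.350). The log2 fold changes in that last setting were about as large as with all libraries, at -0.40 for Dusp1, -0.33 for Akt2, -0.44 for Hras and -0.43 for Camk4. For the averaged knock-in 9 of 12 striatal projection neuron markers and 3 of 7 mature oligodendrocyte markers also passed as lower. So did 1 of 8 astrocyte and 1 of 7 hippocampal markers, and 1 of 11 cortical markers passed as higher. Of these 15 calls, 14 were kept without zQ175 replicates 1 and 5 and 4 without the libraries rich in Ttr. The part of these markers in the levels of the pathway genes was not tested.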

How the data were processed

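Per the labels and methods, the authors used Trimmomatic, HISAT2 2.1.0 on GRCm38 and Subread 1.6.2, and they deposited raw counts per gene without normalization. Whether counting used the strand is not given in the sources used here. From these counts, edgeR 4.0.16 (R 4.3.3) fitted 18 libraries with genotype as the only factor, after TMM normalization and filterByExpr, which kept 20914 of 55421 genes. The quasi-likelihood test was used with Benjamini-Hochberg adjustment over all of them, and a gene passed at FDR 0.1. Log2 CPM used a prior count of 2. Gene symbols were matched for 55154 identifiers, and 54948 had the coordinates of GENCODE M21. DESeq2 1.42.0, other filters, scalings, covariates and sets of libraries were alternatives. Scripts were tested on simulated data. The members and gene lists were chosen with earlier results of these data known. For marker genes named with values, the planned rule, the 3 most abundant of a list, was not followed throughout. From the pathway lists, genes called in any comparison were eligible for naming, with the 3 of lowest p in zQ175 against WT. A result that this covers is left out here. Replicates are separate mice, 1 library each, depth 13612381 to 22702547 counts. The labels give no batch beyond a single sequencing lane. Intervals cover the spread between mice, and the limit for 0 counts covers counting error only.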

Additional observations from a re-analysis of the deposited data

Results flagged for a closer look

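In the groups of 5 mice, 63 sets of values were examined for a library far from the rest of its group, and 10 held one. The 3 CK2a'(+/-) mice were too few to be examined. A rate of 1 in 20 would give 3.15, but the sets share libraries and are not independent, so 10 cannot be read as an excess. Among the genes described here 1 set held such a library. Ntf3 was at 3.33 CPM in zQ175 replicate 5 and at 0 to 0.562 CPM in the other zQ175 mice. The same library had a hippocampal marker sum of 1070 CPM against 674 to 713 CPM in its group. In zQ175 replicate 1 the sum of striatal projection neuron markers was 1620 CPM (others 2810 to 3270 CPM), that of GABAergic interneuron markers 170 CPM (others 264 to 277 CPM), and that of thalamic markers 958 CPM (others 50.2 to 284 CPM). These 2 libraries also had the highest Bdnf. Further marker sums stood apart in libraries where the members did not. Astrocyte markers summed to 4220 CPM in WT replicate 2 (others 2970 to 3320 CPM). In WT replicate 3, mature oligodendrocyte markers summed to 7500 CPM (others 5440 to 5990 CPM) and meningeal markers to 66.4 CPM (others 54.3 to 57.8 CPM). In zQ175:CK2a'(+/-) replicate 2, meningeal markers summed to 57.9 CPM (others 47.4 to 50.1 CPM) and choroid plexus markers to 3100 CPM (others 12.4 to 17.1 CPM).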

How the results depend on the processing

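In zQ175 against WT, members that passed numbered 1, and the number was 2 with DESeq2 and without a filter on low counts (Bdnf and Ngfr), 0 with the 2 groups alone (Bdnf adjusted p = 0.149), 0 at FDR 0.05, 0 without zQ175 replicates 1 and 5 and 0 without the 4 libraries rich in Ttr. The last 2 settings were chosen after seeing the data. A robust fit exchanged Bdnf (adjusted p = 0.101) for Ngfr (0.0952). In zQ175 against zQ175:CK2a'(+/-), 1 member passed without the filter (Bdnf), and for the averaged knock-in 1 passed without the filter (Bdnf, adjusted p = 0.0371) and 1 with the Xist level, a measure of sex, as covariate (Bdnf, 0.0430). Leaving out 1 library at a time, the number ranged from 0 to 2 in zQ175 against WT and from 0 to 1 for the averaged knock-in, where it was 0 with all libraries. The cause of these changes was not tested.

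Over all genes, those that passed in zQ175 against WT numbered 230, and 847 with DESeq2, 451 without the filter, 0 with the 2 groups alone, 51 at FDR 0.05, 0 without zQ175 replicates 1 and 5, 1 without the libraries rich in Ttr and 0 to 587 leaving out 1 library. In zQ175:CK2a'(+/-) against WT they numbered 3, and 124 with DESeq2, 85 without the filter, 1 with the 2 groups alone, 6 in the robust fit, 1 at FDR 0.05 and 1 to 34 leaving out 1 library. In zQ175 against zQ175:CK2a'(+/-) they numbered 3, and 39 with DESeq2, 51 without the filter and 1 to 6 leaving out 1 library. In CK2a'(+/-) against WT they numbered 3, and 11 with DESeq2, 19 without the filter, 0 with the 2 groups alone and 1 to 9 leaving out 1 library. In zQ175:CK2a'(+/-) against CK2a'(+/-) they numbered 124, and 327 with DESeq2, 297 without the filter, 461 with the 2 groups alone, 75 with the Xist level, 27 at FDR 0.05, 14 without the libraries rich in Ttr and 6 to 221 leaving out 1 library. For the averaged knock-in they numbered 1024, and 469 at FDR 0.05, 126 without the libraries rich in Ttr and 348 to 1161 leaving out 1 library. For the interaction the 1 gene became 15 with DESeq2, 10 without the filter, 0 with the Xist level, at FDR 0.05 and without either set of libraries, and 0 to 2 leaving out 1 library.

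Signs turned only for log2 fold changes that did not pass. Without zQ175 replicates 1 and 5 these were Ntrk3 (0.0045) and Sorcs1 (0.055) in zQ175 against WT and Sorcs1 (0.012) in zQ175 against zQ175:CK2a'(+/-). Without the libraries rich in Ttr they were Ngfr (0.24) and Sorcs1 (-0.079) in zQ175:CK2a'(+/-) against WT, Ngfr (0.054) in CK2a'(+/-) against WT and Ntrk2 (0.0064) for the averaged knock-in. With the Xist level it was Ngfr (-0.044) in zQ175:CK2a'(+/-) against CK2a'(+/-). Leaving out 1 library, signs turned within these ranges. In zQ175:CK2a'(+/-) against WT, Bdnf ranged from -0.56 to 0.36, Ngfr from -0.16 to 0.13, Ntrk3 from -0.13 to 0.079, Sort1 from -0.016 to 0.072 and Sorcs1 from -0.0020 to 0.083. In CK2a'(+/-) against WT, Bdnf ranged from -1.15 to 0.24 and Ngfr from -0.24 to 0.051. In zQ175:CK2a'(+/-) against CK2a'(+/-), Bdnf ranged from -0.40 to 1.20 and Ngfr from -0.011 to 0.16. In zQ175 against WT, Ntrk3 ranged from -0.11 to 0.10 and Sort1 from -0.090 to 0.014. Ntrk3 ranged from -0.056 to 0.12 in zQ175 against zQ175:CK2a'(+/-), and Ntrk2 from -0.043 to 0.0053 for the averaged knock-in.

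Replicate numbers did not pair the mice. Correlations of deviations between libraries of the same number were -0.136 to 0.120 (median -0.0093), and 1 of 18 libraries correlated best with its own number. With the replicate number as a block, genes that passed numbered 98 in zQ175 against WT, 1 in zQ175:CK2a'(+/-) against WT, 1 in zQ175 against zQ175:CK2a'(+/-), 1 in CK2a'(+/-) against WT, 12 in zQ175:CK2a'(+/-) against CK2a'(+/-) and 519 for the averaged knock-in. Bdnf kept its call under the block (2.39, adjusted p = 0.0979), its sign turned in zQ175:CK2a'(+/-) against WT (-0.27), and those of Ntrk2 (0.012) and Sorcs3 (0.030) turned for the averaged knock-in.

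DESeq2 size factors and a filter of 10 counts in 10% of the libraries changed no call of a member. Depth limits Ntf3, at 0 to 62 counts, and Bdnf, at 2 to 270 counts.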
